A study of Mus musculus with 6 samples.

Results

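The colony-stimulating factors are secreted growth factors of myeloid cells, and 7 genes of this system were followed here through every array of the study. They were the 3 ligand genes Csf1, Csf2 and Csf3 and the 4 receptor genes Csf1r, Csf2ra, Csf2rb and Csf3r, out of 19938 genes measured. All probe sets annotated to one of these symbols were taken, which gave 1 probe set per gene (10501164 for Csf1, 10385912 for Csf2, 10380999 for Csf3, 10456071 for Csf1r, 10468893 for Csf2ra, 10425066 for Csf2rb and 10508074 for Csf3r). The genes were selected on their log2 levels on the 6 arrays and their changes with interferon-beta (IFN-β) in each line, so both are given as a description, with no test.

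The study measured total RNA of 3 mouse cell lines on 6 whole-transcript arrays, 1 for each line and condition, to find genes that IFN-β, a type I interferon, regulates. The groups were NIH3T3 with IFN-β for 4 h and unstimulated NIH3T3, L929 with IFN-β for 4 h and unstimulated L929, and RAW264.7 with IFN-β for 4 h and unstimulated RAW264.7. NIH3T3 and L929 are fibroblast lines, the first of embryonic and the second of connective tissue origin, and the labels name RAW264.7 as macrophage. The labels state neither an engineered allele nor a dose of IFN-β. With 1 array per group no value has a replicate error, and a difference between 2 arrays may be technical. Levels are on the log2 scale, and they are compared between arrays for 1 gene but, beyond a rough guide to low signal, not between genes, because each probe set responds differently.

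Csf1, also called M-CSF, binds the receptor tyrosine kinase Csf1r and supports survival, growth and differentiation of macrophages and their precursors. Csf2, also called GM-CSF, signals through a ligand-binding subunit, Csf2ra, and a signal-transducing subunit, Csf2rb, that the IL-3 and IL-5 receptors share. Csf3, or G-CSF, acts through Csf3r and drives the production of neutrophils. Fibroblasts are a well-known source of CSF1, and medium conditioned by L929 cells is a standard source of it for growing mouse macrophages from bone marrow.

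The lines carried the markers of their cell types. The median log2 level of 10 macrophage markers was 10.7 in stimulated and 10.02 in unstimulated RAW264.7, and between 3.81 and 4.43 on the fibroblast arrays. The median of 8 fibroblast markers ran from 10.06 to 11.36 on the fibroblast arrays and was 4.66 in stimulated and 4.9 in unstimulated RAW264.7. Among single markers, the fibroblast surface protein gene Thy1 was at 5.05 in stimulated and 4.96 in unstimulated L929, near its level in RAW264.7, and Vim, for an intermediate filament, was at 10.54 on both RAW264.7 arrays. The macrophage marker Mpeg1, for perforin-2, was at 8.09 in stimulated and 3.91 in unstimulated L929, while Csf1r was at 4.28 in stimulated and 4.41 in unstimulated L929. Lymphocyte markers (7 genes, levels from 2.66 to 5.51) and neutrophil markers (8 genes, 2.87 to 5.14) were low on all arrays and serve as a guide to the level of genes these lines are not known to express. The median change over all genes was -0.03 in RAW264.7, -0.05 in L929 and 0.17 in NIH3T3. On the NIH3T3 arrays the median change depended on the level. Among the 3616 genes that began within 0.5 of the level of Csf1r there, the median change was 0.30, and among the 1333 that began within 0.5 of the level of Csf1 it was -0.07.

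Of the 7 genes, the ligand gene Csf1 had the widest difference with IFN-β, in the macrophage line. Promoter windows are shown first for Csf1 and for Csf3r, the receptor gene of G-CSF, which both held a kappaB motif. This pair was picked after the matches and changes were seen. Whether the motif bears on either change was not tested. Each window runs from 250 bases before to 50 bases after the annotated start, 5′ to 3′ on the strand of the gene, and comes from RefSeq on build GRCm38.p6, as do those of Csf2 and Csf2ra, so that 4 of the 7 genes were matched. The Csf1 window is chr3:107760420-107760719 on the minus strand and the Csf3r window chr4:126024409-126024708 on the plus strand. Capitals mark matches to any of the motifs searched.
Csf1: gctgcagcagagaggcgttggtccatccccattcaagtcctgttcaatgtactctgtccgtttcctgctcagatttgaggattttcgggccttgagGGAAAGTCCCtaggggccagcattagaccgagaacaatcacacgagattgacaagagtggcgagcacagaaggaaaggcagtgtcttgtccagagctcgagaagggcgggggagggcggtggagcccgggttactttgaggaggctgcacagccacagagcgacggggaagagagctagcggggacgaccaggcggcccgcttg
Csf3r: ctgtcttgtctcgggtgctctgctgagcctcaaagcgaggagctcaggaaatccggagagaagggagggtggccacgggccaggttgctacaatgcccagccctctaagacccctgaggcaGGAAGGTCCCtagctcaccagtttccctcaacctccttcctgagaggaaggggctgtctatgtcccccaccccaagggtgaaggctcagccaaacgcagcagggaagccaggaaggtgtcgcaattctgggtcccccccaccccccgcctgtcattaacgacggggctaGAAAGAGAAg

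Both strands of each window were searched for 5 motifs. The core of the interferon-stimulated response element, which the interferon-activated complex of STAT and IRF proteins binds, was written GAAANNGAA, and the gamma-activated site of STAT dimers TTCNNNGAA. The core of PU.1, a transcription factor of myeloid cells, was written GAGGAAGT, and the AP-1 site TGANTCA. The fifth was the kappaB consensus of NF-kB. The single match in the Csf1 window was to kappaB, beginning 154 bases before the start, and no letters of the other 4 motifs were found there. The Csf3r window held a kappaB match 129 bases before the start and a match to the response element core 40 bases after it, and no match overlapped another. The Csf2 window held a match to the response element core 199 bases before the start, and that of Csf2ra none to any motif. The core was first searched in a stricter form of 10 letters, with an A added at its end, and the form of 9 letters was taken afterwards with those results known. By the form of 10 letters 0 of the 4 windows matched, so the matches in Csf3r and Csf2 rest on the shorter form. Of all 32851 windows in the table, 8.46% held the kappaB motif, 8.56% the interferon-stimulated response element core, 8.3% the gamma-activated site, 7.81% the AP-1 site and 3.2% the PU.1 core. The form of 10 letters was in 3.44% of them. By gene, the response element core was found for 29 of the 48 matched genes that were at least 3-fold higher in all 3 lines and for 6 of the 21 matched genes at least 3-fold higher in RAW264.7 alone, against 9.2% of all measured genes with a window. By the form of 10 letters these were 27 of the 48 and 3 of the 21, against 3.89% of all. The kappaB motif was found for 7 of the 48 and 5 of the 21, against 11.0% of all. Both sets were selected by their changes on these arrays, and Csf1 is itself among the 21 and the 5. Nothing is therefore read from these shares. A match in these letters is a description of the window and shows no binding.

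Csf1 had a log2 level of 6.62 in stimulated RAW264.7, against 3.52 in unstimulated RAW264.7. Stimulated NIH3T3 had 9.51, against 9.02 in unstimulated NIH3T3, and stimulated L929 had 10.79, against 10.37 in unstimulated L929. The highest array was thus stimulated L929 and the lowest unstimulated RAW264.7, and the 4 fibroblast arrays, between 9.02 and 10.79, lay above both RAW264.7 arrays. The log2 change with IFN-β was 3.11 in RAW264.7, 8.61-fold, and 0.50 in NIH3T3 and 0.42 in L929, 1.41-fold and 1.34-fold. With each array centred on its median the change in NIH3T3 was 0.22, and after quantile normalization it was 0.52. The mean over the lines was 1.34 ± 1.53 (SD, n = 3 lines), so that the spread between lines was larger than the mean. Ordered by size, the change of Csf1 was number 35 of 19938 genes in RAW264.7, 1712 in L929 and 3550 in NIH3T3.

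The unstimulated Csf1 level in RAW264.7 was in the range of the lymphocyte markers, and the stimulated one was still below the fibroblast lines. In RNA of a whole culture, more cells with the transcript and more transcript per cell cannot be told apart. By the measured values, unstimulated RAW264.7 was 45.3-fold below unstimulated NIH3T3 and 115-fold below unstimulated L929. After IFN-β the distance between stimulated arrays was 7.42-fold to NIH3T3 and 17.9-fold to L929. Stimulated RAW264.7 was still 5.26-fold below unstimulated NIH3T3. Since the unstimulated level in RAW264.7 was so low, the 8.61-fold, 45.3-fold and 115-fold are approximate. Among genes that began within 0.5 of the same level in each line, the median change was 0.00 in RAW264.7, -0.14 in L929 and -0.07 in NIH3T3.

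**Figure D1:**
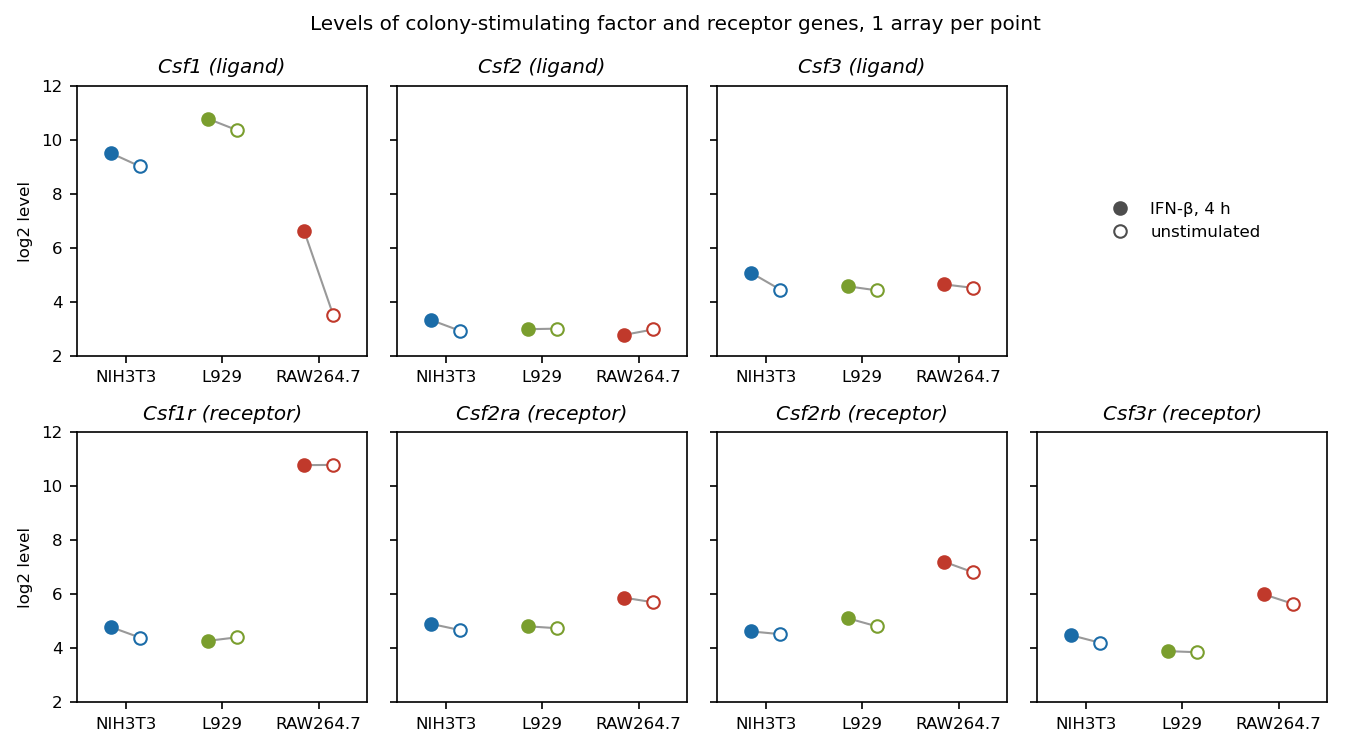
Log2 level (vertical axis) of each of the 7 genes on the 6 arrays, by cell line (horizontal axis), with stimulated arrays as filled points left of unstimulated arrays as open points. Csf1 is high on the 4 fibroblast arrays and differs between the RAW264.7 arrays, 6.62 with IFN-β and 3.52 without, while Csf1r is near 10.8 on both RAW264.7 arrays and between 4.28 and 4.79 elsewhere.

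The other ligand genes stayed low in every line. Csf2 had log2 levels of 3.33 with and 2.93 without IFN-β in NIH3T3, 2.99 with and 3.01 without in L929, and 2.78 with and 2.98 without in RAW264.7. Its 6 values spanned 0.55, and both RAW264.7 values lay within or below the fibroblast range. The changes were -0.20 in RAW264.7, -0.02 in L929 and 0.40 in NIH3T3, with a mean of 0.06 ± 0.31 (SD, n = 3 lines). In NIH3T3 the change of Csf2 was 0.12 with either scaling, centring on the median or quantile normalization. Csf3 had levels of 5.08 with and 4.46 without IFN-β in NIH3T3, 4.58 with and 4.43 without in L929, and 4.65 with and 4.52 without in RAW264.7. Stimulated NIH3T3 was its highest array, and the other 5 lay within 4.43 and 4.65. Its change of 0.62 in NIH3T3 was larger than the 0.15 in L929 and the 0.13 in RAW264.7, but genes starting at a like level in NIH3T3 had a median change of 0.30. With the arrays quantile normalized the change of Csf3 in NIH3T3 was 0.33. Csf2 and Csf3 are classically induced by inflammatory signals such as endotoxin and interleukin-1, which were not part of this experiment.

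The receptor genes had one pattern of level in common, with RAW264.7 highest, and small changes with IFN-β. Csf1r was at 10.79 in stimulated and 10.80 in unstimulated RAW264.7. It was at 4.79 in stimulated and 4.40 in unstimulated NIH3T3, and at 4.28 in stimulated and 4.41 in unstimulated L929. By these values the unstimulated macrophage line was 84.9-fold above NIH3T3 and 84.2-fold above L929. Both folds are approximate, because the fibroblast levels lay in the range of the lymphocyte and neutrophil markers. The changes were -0.01 in RAW264.7 (0.02 with centring), -0.13 in L929 and 0.39 in NIH3T3. The change in NIH3T3 was 0.11 with centring and 0.10 after quantile normalization. Csf1 and Csf1r thus lay in different lines without IFN-β, the ligand in the fibroblasts and its receptor in the macrophage line. After IFN-β RAW264.7 had the Csf1r level it began with and a Csf1 level above its own unstimulated one.

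Csf2rb had levels of 7.21 with and 6.82 without IFN-β in RAW264.7, 4.63 with and 4.53 without in NIH3T3, and 5.12 with and 4.82 without in L929. Without IFN-β RAW264.7 was about 4.89-fold above NIH3T3 and 4.00-fold above L929, whose levels were again in the range of those markers. The changes were 0.40 in RAW264.7, 0.30 in L929 and 0.10 in NIH3T3 (below 0 with the arrays centred on their medians or quantile normalized), for a mean of 0.27 ± 0.15 (SD, n = 3 lines). After Csf1 this was the largest change among the 7 genes in RAW264.7, number 1181 of all genes. Mice carry a close paralog, Csf2rb2, which encodes a beta subunit specific for IL-3. Among measured protein-coding genes it stands next to Csf2rb on chromosome 15 in the RefSeq annotation. Its own probe set had 5.24 with and 5.06 without IFN-β in RAW264.7, 4.94 with and 4.60 without in NIH3T3, and 4.39 with and 4.46 without in L929. Whether transcripts of the paralogs bind each other's probes was not tested.

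Csf2ra, the ligand-binding partner, was at 5.88 in stimulated and 5.71 in unstimulated RAW264.7. Its levels were 4.91 with and 4.68 without IFN-β in NIH3T3, and 4.82 with and 4.75 without in L929, so that the lower RAW264.7 array stood 0.79 above the highest fibroblast array. Its changes were 0.17 in RAW264.7, 0.07 in L929 and 0.24 in NIH3T3, with a mean of 0.16 ± 0.09 (SD, n = 3 lines). Csf3r was at 6.0 with and 5.65 without IFN-β in RAW264.7, at 4.49 with and 4.21 without in NIH3T3, and at 3.90 with and 3.86 without in L929. Without IFN-β RAW264.7 was about 2.71-fold above NIH3T3 and 3.45-fold above L929. The changes of Csf3r were 0.35 in RAW264.7, 0.04 in L929 and 0.28 in NIH3T3, the last being 0.01 under both scalings. Csf2ra and Csf3r in the fibroblast lines lay within the range of the lymphocyte and neutrophil markers. Their levels in unstimulated RAW264.7, 5.71 and 5.65, were only a little above the top of that range, 5.51.

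**Figure D2:**
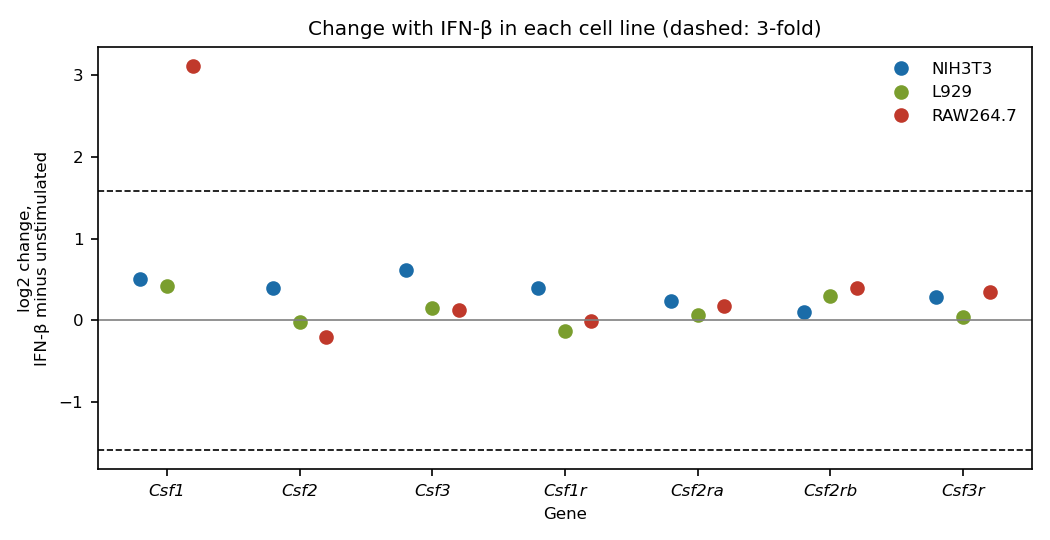
Log2 change (IFN-β minus unstimulated, vertical axis) of each gene in NIH3T3, L929 and RAW264.7, 1 pair of arrays per point, with dashed lines at 3-fold. The value of 3.11 for Csf1 in RAW264.7 lies above the 3-fold line and the other 20 values lie between -0.20 and 0.62.

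At the 3-fold threshold of the series' design text, 1 of the 7 genes, Csf1, was higher in RAW264.7, where 0.617% of all genes were. In NIH3T3 0 of 7 were higher, against 0.476% of all genes, and in L929 0 of 7, against 0.893%. None of the 7 was 3-fold lower in any line, where 0.0% of all genes were lower in RAW264.7, 0.01% in L929 and 0.0401% in NIH3T3. The genes were chosen with these changes known, so nothing is read from the counts. The median change of the 7 genes was 0.17 in RAW264.7, where that of all genes was -0.03, 0.07 in L929, where it was -0.05, and 0.39 in NIH3T3, where it was 0.17. In NIH3T3 all 7 values were above 0, as were 68.3% of all genes, and with each array centred on its median or after quantile normalization 5 of the 7 were. The 2 below 0 under each scaling were Csf2ra and Csf2rb, at -0.04 and -0.17 with centring and at -0.04 and -0.18 after quantile normalization.

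**Figure D3:**
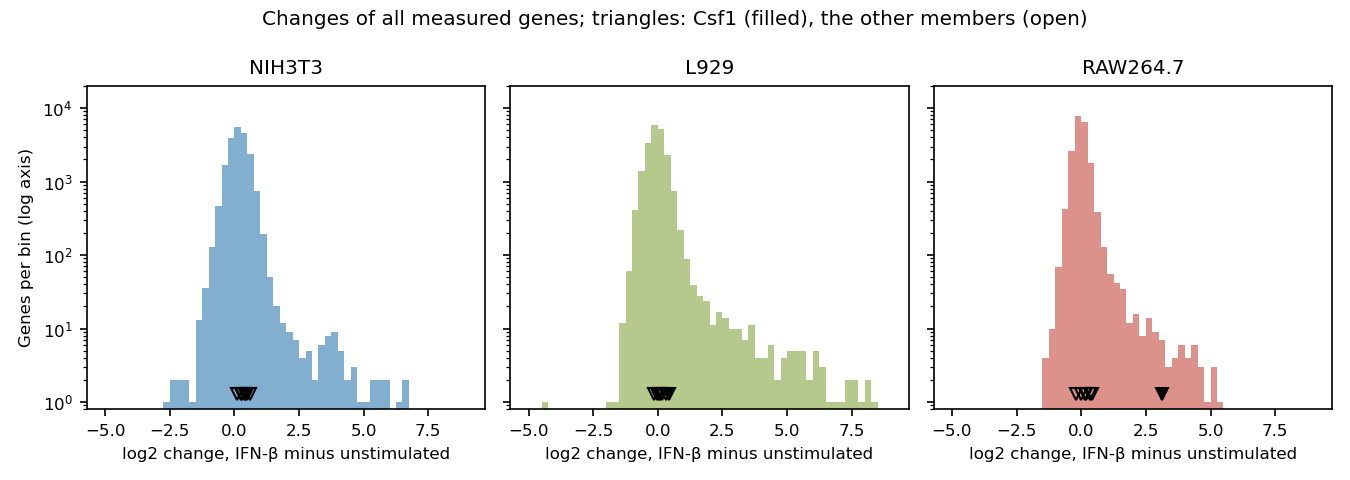
Histograms of the log2 change (IFN-β minus unstimulated, horizontal axis) of all 19938 genes in each line, with the number of genes per bin on a log axis. Triangles mark Csf1 (filled) and the other 6 genes (open); Csf1 lies in the upper tail in RAW264.7, at 3.11, and the other members lie in the bulk in each line.

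Genes of like pattern were found by the distance over the 6 log2 levels, after the mean of each gene was subtracted. The nearest to Csf1 was Ccl2, a chemokine for monocytes, at a distance of 1.65. Steap1, a membrane protein gene, followed at 1.83, and Osmr, a receptor subunit for oncostatin M, at 2.11. All 3 were high in the fibroblasts and low in RAW264.7, but the likeness was loose. Ccl2 changed by 1.35 in RAW264.7, 1.69 in L929 and 1.32 in NIH3T3, so its changes were close together in the 3 lines where those of Csf1 were not. Nearest to Csf1r were Ap1s3 (0.34), Tm6sf1 (0.36) and Ptprc (0.42), the last encoding the leukocyte surface phosphatase CD45. Nearest to Csf2rb were Nlrp1b (0.12), an inflammasome sensor gene, Mcoln2 (0.27), a lysosomal channel gene, and Pou2f2 (0.32), a transcription factor gene. For Csf3r they were Selplg (0.21), the selectin ligand, Nfkbia (0.23), the NF-kB inhibitor, and Klrg2 (0.24). Csf2ra was nearest to Mrpl44 (0.14), Nipa2 (0.16) and Tshz3 (0.19). For Csf2 and Csf3, which hardly varied, the nearest genes were Armh4, Cacna2d4 and Fxyd7, and Olfr622, Olfr815 and Ccdc85a, at distances of 0.06 to 0.08.

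Taking the 3 changes alone, Csf1 was most like Cfb, Ms4a4c, Cd69, Slfn1 and Tent5a, at distances from 0.60 to 1.01. Cfb, which encodes complement factor B, changed by 2.73 in RAW264.7, 0.81 in L929 and 0.77 in NIH3T3. Ms4a4c, a membrane protein gene, changed by 3.67 in RAW264.7, 0.45 in L929 and 0.81 in NIH3T3. Cd69, an early activation marker of leukocytes, had changes of 2.53 in RAW264.7, 0.83 in L929 and -0.08 in NIH3T3. For each of these 5 genes stimulated RAW264.7 was the highest of the 6 arrays, whereas for Csf1 both RAW264.7 arrays were below the 4 fibroblast arrays. The measured protein-coding genes nearest to Csf1 on either side in the RefSeq annotation did not share its change in RAW264.7. Ahcyl1, an adenosylhomocysteinase-like gene, changed by 0.10 there and Eps8l3 by 0.16. Il3, such a neighbour of Csf2 on chromosome 11, was low on all arrays, from 2.31 to 3.02.

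The genes around the receptors were then counted in 5 lists, for which the effect of IFN-β was tested over the 3 pairs of arrays with limma, with cell line as a block and Benjamini-Hochberg adjustment over all genes. Of 51 measured genes 0 rose and 0 fell at an adjusted p under 0.05, where 0.732% of all genes rose and 0.0% fell. At an unadjusted p under 0.05, 7 of the 51 were higher and 0 lower, where 4.2% of all genes were higher and 1.27% lower. By the probe set kept for each gene, none of the 51 was 3-fold changed in any line.

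Among the genes of these lists, Stat3, from the list of receptor-proximal signalling genes, came closest to the adjusted p threshold. Stat3, a transcription factor activated by G-CSF and by interferon receptors, had levels of 8.94 with and 8.38 without IFN-β in NIH3T3, 7.98 with and 7.13 without in L929, and 8.45 with and 7.57 without in RAW264.7. Its mean log2 change of 0.76 ± 0.16 (limma SE, n = 3 lines), higher in 3 of 3 lines, had an adjusted p of 0.101 in limma. Jak2, the kinase bound to the GM-CSF receptor, had levels of 9.50 with and 8.22 without IFN-β in RAW264.7, 8.17 with and 7.31 without in L929, and 7.64 with and 7.70 without in NIH3T3. Its changes were 1.28 in RAW264.7, 0.86 in L929 and -0.06 in NIH3T3, and the limma adjusted p was 0.628. Shc1, an adaptor, changed by 0.15 in RAW264.7, -0.87 in L929 and 0.20 in NIH3T3. The median of the mean changes of this list of 17 was 0.08, against 0.03 for all genes.

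Among 12 target and feedback genes of STAT signalling, with a median of 0.21, Socs1, which blocks JAK kinases, had changes of 0.30 in RAW264.7, 0.92 in L929 and 1.12 in NIH3T3. Its mean was 0.78 ± 0.19 (limma SE, n = 3 lines), higher in 3 of 3 lines, with a limma adjusted p of 0.203. Without the RAW264.7 arrays the mean was 1.02 with a limma adjusted p of 0.0308, a fit that rests on NIH3T3 and L929 alone. The limma adjusted p of Socs1 was 0.619 without NIH3T3 and 0.571 without L929. Pim1, a survival kinase induced by cytokine receptors, changed by 1.06 in RAW264.7, -0.28 in L929 and 0.49 in NIH3T3. Socs2 had changes of 0.10 in RAW264.7, 0.95 in L929 and 0.37 in NIH3T3. A second probe set of Socs2 disagreed, with 2.28 in L929, -0.24 in NIH3T3 and -0.28 in RAW264.7.

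Of 6 related ligand genes, Flt3l, the growth factor of dendritic cell precursors, had changes of 0.60 in RAW264.7, 0.31 in L929 and 0.74 in NIH3T3, and a limma adjusted p of 0.469. Il34, the second ligand of Csf1r, had levels of 4.95 with and 5.13 without IFN-β in NIH3T3, 5.61 with and 6.02 without in L929, and 4.12 with and 4.18 without in RAW264.7. Its changes were -0.06 in RAW264.7, -0.41 in L929 and -0.18 in NIH3T3. Il3 had changes of 0.25 in RAW264.7, 0.58 in L929 and 0.22 in NIH3T3. The median of the list was -0.01. The 6 related receptor genes had a median of 0.06, and Il5ra, Flt3 and Epor had the largest changes in a line, 0.43 in NIH3T3 for Il5ra, -0.40 in RAW264.7 for Flt3 and -0.50 in L929 for Epor.

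Myeloid transcription factors (10 genes, median 0.09) included Irf8, a regulator of monocyte and dendritic cell development, with a log2 level of 9.13 in stimulated and 7.91 in unstimulated RAW264.7. Its change was 1.22 there, 0.27 in NIH3T3 and 0.15 in L929, with a limma adjusted p of 0.830. Spi1, which encodes PU.1, a known activator of Csf1r, was at 9.57 in stimulated and 9.67 in unstimulated RAW264.7 and between 3.70 and 4.08 on the fibroblast arrays. Egr2 had changes of 0.62 in RAW264.7, 0.15 in L929 and 0.51 in NIH3T3, and Gfi1 changes of -0.36 in RAW264.7, -0.03 in L929 and 0.61 in NIH3T3.

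**Figure D4:**
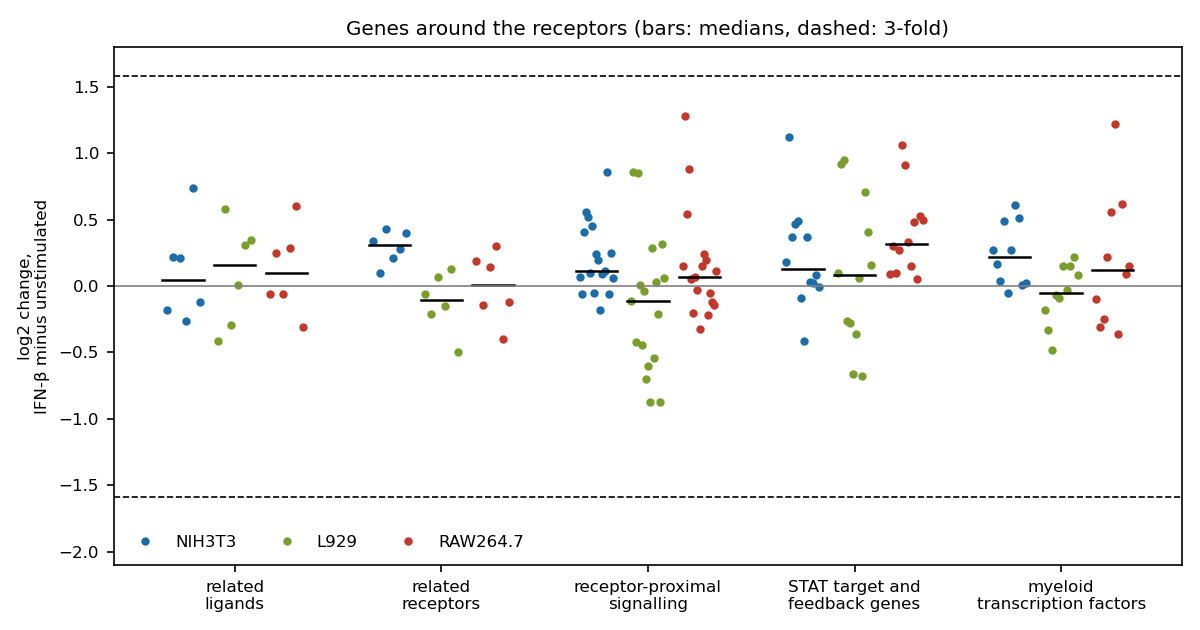
Log2 change (IFN-β minus unstimulated, vertical axis) of each measured gene of 5 lists around the colony-stimulating factor receptors, in NIH3T3, L929 and RAW264.7, with short bars at the medians and dashed lines at 3-fold. All points lie within 3-fold, the highest being Jak2 in RAW264.7 at 1.28.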

How the data were processed

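Each of the 6 RNA samples was hybridised to its own Affymetrix array after whole-transcript labelling, per the labels' protocols. The submitters' processing notes name RMA, by which the authors made the deposited log2 values; it corrects background, normalizes across arrays and summarises each probe set. Its version and settings are not stated in these sources, and the values themselves gave the log base. The deposited arrays differed in median level over all probe sets, with 5.05 in stimulated NIH3T3 and 4.72 to 4.82 on the others. Detection calls were not used here.

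Of 35557 probe sets, 21789 name a single gene in the platform annotation, 1621 several and 12147 none. Where a gene had several single-gene probe sets (999 genes), the brightest by its mean over the arrays stood for it, giving 19938 genes, with no filter on low levels. Changes within a line are differences of 2 arrays. The effect across lines was fitted in R 4.3.3 by limma 3.58.1, with treatment and a block for line (2 residual degrees of freedom, prior 7.872). The 2 arrays of each line were paired because they share that line. Lines serve as the replicates. The limma p-values and SE are moderated, that is, the spread between lines of each gene is combined with a prior variance from all genes. They therefore do not measure the spread of the 3 changes alone. The fit was also run on data simulated from its own fitted model, with the same effect in every line. That run cannot check whether the model's assumptions hold in these data. Tables were made with pandas 2.3.3 and numpy 2.4.6 and plots with matplotlib 3.10.9, in Python 3.11.15.

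The 7 genes, the 5 lists, the marker lists and the tests were chosen with earlier results of these data known. From each list the genes named were those past the test or 3-fold in a line and the 3 with the largest change in any line. The nearest 3 genes by pattern were named for each of the 7 genes, with 5 more for Csf1 by its changes. Csf2rb2, Spi1, Mpeg1, Thy1, Vim, Axl, Acod1 and the annotated neighbours were named outside this rule, after their values were seen. The response element core of 9 letters was likewise set after the form of 10 letters had been searched and its results were known, and both are given. Some genes of the lists are not reported here. Alternatives covered the probe set per gene, 2 scalings, the block, a level filter, a trended robust prior, each line left out and other thresholds.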

Additional observations from a re-analysis of the deposited data

How the results depend on the processing

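The change of Csf1 in RAW264.7 stayed above 3-fold, and also above 5-fold, with each array centred on its median and after quantile normalization. In both scalings each change of the 7 genes moved by less than 1 SD of the changes of all genes in that line, although in NIH3T3 several were moved by over 1.5 times, as given beside them. The numbers of these genes at least 3-fold changed, also counted at 2-fold and 5-fold, were the same. Across lines 146 genes rose and 0 fell in limma, and at an unadjusted p under 0.05 838 were higher and 254 lower. Without the pairing by cell line (no replicate block) 2 rose. Centring on the median gave 1 lower gene, and leaving out each line in turn gave 116 to 218 higher and 0 to 5 lower genes, the 5 without RAW264.7. Of the STAT target and feedback genes 0 rose, and 0 to 1 with each line left out, the 1 being Socs1 without RAW264.7. No other list count changed under any setting tried, the fit without the block included. With 1 array per group, changes near 0 and levels near those of unexpressed genes cannot be resolved.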

Other observations

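A level at least 3-fold higher with IFN-β in RAW264.7, and in neither fibroblast line, was found for 26 genes (0.13%). Unstimulated RAW264.7 lay above both unstimulated fibroblast lines in 17 of the 26 and below both in 5. In 2 of the 26, Csf1 and Axl, stimulated as well as unstimulated RAW264.7 lay below both unstimulated fibroblast lines. Axl, a receptor tyrosine kinase of the TAM family, had log2 levels of 6.68 with and 5.04 without IFN-β in RAW264.7, 10.16 with and 10.88 without in NIH3T3, and 7.53 with and 7.88 without in L929. Its change was 1.64 in RAW264.7, -0.35 in L929 and -0.72 in NIH3T3. For Acod1, the itaconate-producing enzyme gene, RAW264.7 was instead the highest line, with 11.24 in stimulated and 8.71 in unstimulated RAW264.7 and 3.97 to 4.40 on the fibroblast arrays. These genes were selected by their change, so their number is a description.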
